A study of Mus musculus with 4 samples.

Results

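The shared response to loss of MYC was measured in CL4188 cells, a conditional mouse lymphoma line from strain FVB/N in which doxycycline (DOX) switches MYC off. Control cells carried the empty retroviral vector MSCV, and miR-17-92 cells carried MSCV with the microRNA cluster of that name. Each line was profiled once without DOX, with MYC on, and once after DOX at 20 ng/ml for 48 hours, with MYC off. Total RNA went onto 4 Illumina mouse bead arrays, and all of them were used here. Both arrays with DOX were set against both arrays without, paired by vector in an additive limma model with 1 residual degree of freedom. Members were the 8062 genes, of 19057 named on the array, with a detection p-value of at most 0.01 on 2 or more arrays. Each condition held 1 culture of each line as labelled, so the spread behind every p-value comes only from differences between the lines in how far genes moved. A gene's own difference enters with 1 degree of freedom, against 7.03 for a value pooled over all genes. All 4 cultures carried the same conditional MYC and a retroviral vector. The labels do not give the species of the MYC coding sequence or the promoter that drives it, and no cells without the conditional MYC were given DOX.

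MYC is a transcription factor that pairs with MAX and binds the E-box CACGTG. In growing cells it is known for raising genes of ribosome assembly, nucleotide synthesis, protein folding and nuclear transport, while MXD proteins compete with it for MAX. Lymphomas that depend on MYC often stop dividing, differentiate or die when it is withdrawn, and the miR-17-92 cluster is itself a known MYC target that curbs genes of cell-cycle arrest and death. Ratios here are log2 of DOX over no DOX, averaged over both lines and given ± SE of the fit. Levels are normalized log2 intensities, which compare arrays for 1 gene and do not compare genes.

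Detected probes numbered 13251 and 13656 of 45281 without DOX and 14864 and 14658 with it. Both arrays without DOX were on 1 slide and both with DOX on another, so MYC loss, exposure to DOX and the slide cannot be told apart. Arrays give no read depth, and their number limits the precision. The arrays were scaled to a common distribution, so every ratio is relative to the other genes measured.

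Of the 8062 genes tested, 1838 (22.8%) rose and 1584 (19.6%) fell with DOX at an adjusted p of at most 0.05 by limma with Benjamini-Hochberg adjustment. No called gene moved in opposite directions in the 2 lines, an outcome that the fit fixes at this cutoff. A gene's error grows with the gap between its lines, so such a gene could not be called. In both lines separately, 961 genes (11.9%) lay 2-fold or more above the level without DOX and 874 (10.8%) 2-fold or more below it. Each of these was also called, which the fit makes all but certain for ratios of that size in both lines. A gene detected on only the 2 arrays of 1 condition passed the filter through them, which favours a call toward that condition. Such genes were 339 of those called higher and 141 of those called lower. The higher genes made up 53.7% of the calls, against 63.9% when arrays were scaled to equal medians and 44.1% with the authors' processed values. The median ratio of all genes was 0.05, and it was 0.23 and -0.07 under those scalings. Among called genes the median size of the ratio was 1.45 in control cells and 1.17 in miR-17-92 cells, and control cells moved further for 2432 of the 3422 genes. Leaving out the control or the miR-17-92 array without DOX cut the calls to 473 higher and 447 lower, or to 368 and 374. With no sharing of variance across genes, limma called 0 genes in either direction, and 714 higher and 640 lower genes had an unadjusted p of at most 0.05.

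**Figure D1:**
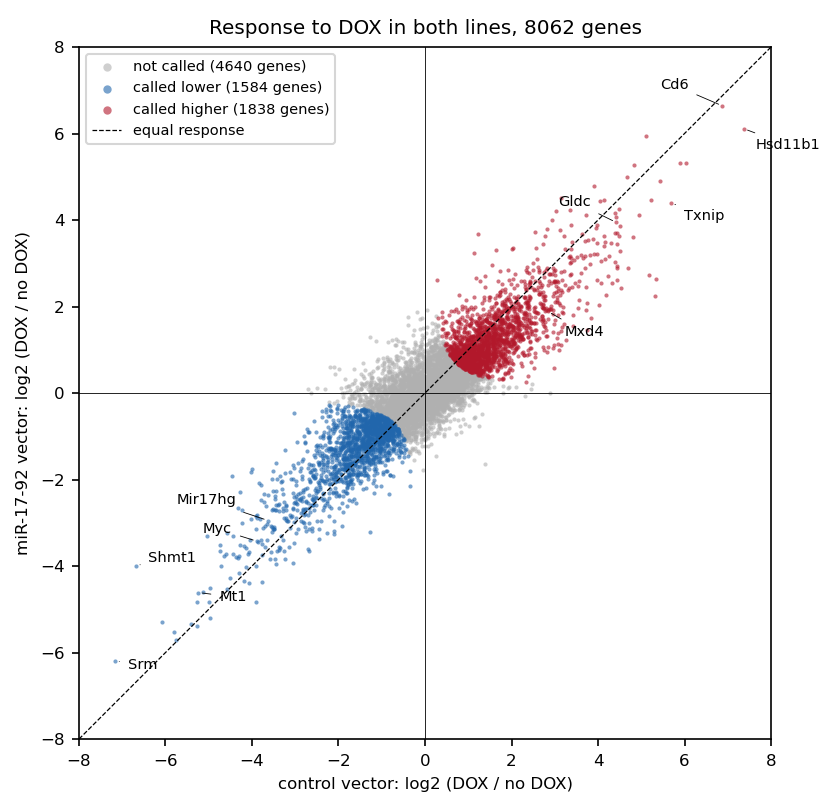
Each point is 1 of 8062 genes, with the log2 ratio of DOX over no DOX in control cells on the x axis and in miR-17-92 cells on the y axis. The 1838 genes called higher and the 1584 called lower lie in the upper right and lower left corners, which the fit fixes at this cutoff. Cd6, Hsd11b1 and Srm lie at the ends, and the dashed line marks an equal response.

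Myc itself checked the labels. Its level was 8.80 in control cells and 8.73 in miR-17-92 cells without DOX, and 4.92 and 5.30 with DOX. Both arrays with DOX lay below detection and far under both without. The group means were 8.76 and 5.11, and Myc was at least 6.04-fold lower (adjusted p = 7.2e-05). Such a bound sets the bright group against the lowest detected signal of the dim arrays where a gene was undetected on both. Whether the probe reads the conditional MYC or the cell's own gene was not tested. Mir17hg, the host transcript of the miR-17-92 cluster, stood at 10.34 and 10.21 without DOX and at 6.71 and 7.26 with it. It fell by 3.29 ± 0.28 on the log2 scale (adjusted p = 0.00013), and the level in miR-17-92 cells did not exceed that in control cells without DOX. The mature microRNAs of the cluster were not measured by these arrays. They are printed to show what the host transcript encodes, 5′ to 3′ with the seed (bases 2 to 8) in capitals, from RefSeq on GRCm38.p6, chromosome 14, plus strand. The pair miR-17-5p and miR-20a-5p share a seed, as do miR-19a-3p and miR-19b-3p.
mmu-miR-17-5p: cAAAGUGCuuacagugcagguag
mmu-miR-20a-5p: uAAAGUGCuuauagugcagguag
mmu-miR-18a-5p: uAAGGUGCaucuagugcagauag
mmu-miR-19a-3p: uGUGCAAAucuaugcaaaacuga
mmu-miR-19b-3p: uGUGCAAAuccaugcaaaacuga
mmu-miR-92a-3p: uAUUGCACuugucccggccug

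Partners and rivals of MYC gave mixed results. Of 10 tested genes of the MYC, MXD and Mondo network, 5 rose (50%, against 22.8% of all genes tested) and 2 fell (20%, against 19.6%). Mxd4, which competes with MYC for MAX, went from 11.84 and 11.66 to 14.67 and 13.55 and rose by 2.36 ± 0.30 (adjusted p = 0.00073). Txnip, a thioredoxin-binding brake on glucose uptake and a target of the related factor MondoA, went from 8.93 and 8.94 to 14.62 and 13.34, a ratio of 5.04 ± 0.34 (adjusted p = 6.5e-05). In neither gene did the conditions overlap, which for Txnip follows from its place among the 15 highest ratios. Mxd1 and Mga, an MXD repressor and a MAX partner, were undetected on both arrays without DOX and rose. The bound for Mxd1 was 1.51-fold and that for Mga did not exceed 1-fold. Mxd3 rose by 2.04. Besides Myc, Mlxip, the gene of MondoA, fell by 0.93, and Max at -0.24, Mxi1 at 0.04 and Mlx at 0.72 did not pass the test. The median ratio of these 10 genes was 1.04, and 0.32 with undetected genes set at their bound.

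The 15 genes that fell furthest held enzymes of several pathways and a subunit of RNA polymerase I. Srm, which makes spermidine, stood at 13.89 and 13.96 without DOX and at 6.72 and 7.77 with it, a ratio of -6.68 ± 0.30 (adjusted p = 2.8e-05). Bcat1, which transaminates branched-chain amino acids, went from 12.14 and 12.20 to 6.34 and 6.66. Gsto1, a glutathione transferase, went from 13.03 and 12.85 to 6.94 and 7.57. All 3 were bright on both arrays without DOX and dim on both with it, as their choice by size of change implies. Rangrf, which acts on the transport GTPase Ran, fell by 5.37, Mt1, a metal-binding metallothionein, by 4.93, Efhd1, a mitochondrial calcium-binding protein, by 4.86, and Pusl1, a pseudouridine synthase-like gene, fell by 4.39. Car12, a membrane carbonic anhydrase, had group means of 11.29 and 5.56 and was at least 34.8-fold lower, undetected on both arrays with DOX. Mcrip2, Pdia5, a disulfide isomerase, and Pcsk4, a proprotein convertase, were likewise undetected with DOX and at least 28.2-, 13.2- and 12-fold lower. The next probe of Pdia5 had a ratio of -2.91. Fkbp11, a prolyl isomerase of the endoplasmic reticulum, fell by 5.05 ± 0.26, Ydjc by 4.37 ± 0.30.

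**Figure D2:**
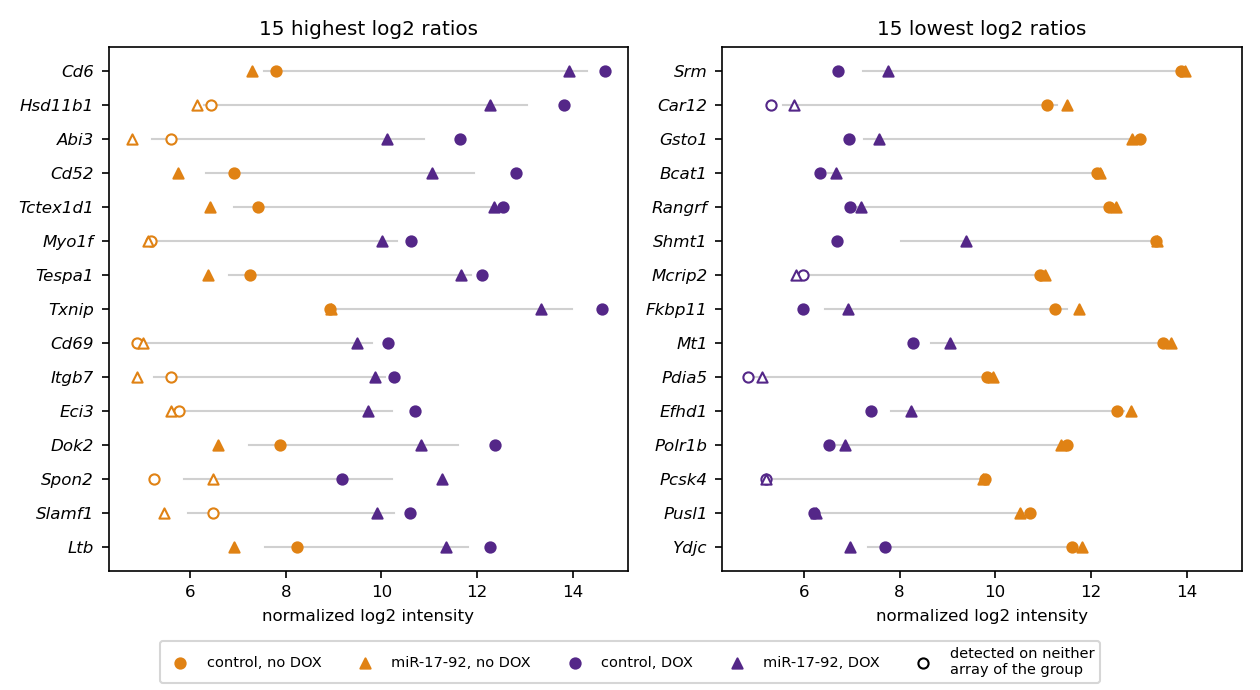
Normalized log2 intensity on each of the 4 arrays for the 15 genes with the highest and the 15 with the lowest ratio among genes at least 2-fold changed in both lines. Circles are control cells, triangles miR-17-92 cells, and open symbols mark groups in which neither array detected the gene. The DOX and no-DOX symbols do not overlap for any of these 30 genes, as the choice of genes by their change fixes.

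Genes of ribosome building fell. Of 54 genes of rRNA processing and ribosome assembly, 49 fell (90.7%, against 19.6% of all genes tested) and none rose, with a median ratio of -2.02. Rrp12, a ribosome export factor, went from 13.09 and 13.17 to 8.50 and 9.46. Gnl3, the nucleolar GTPase nucleostemin, went from 10.22 and 10.62 to 6.73 and 7.52. Both conditions stood well apart in both genes, with control cells the lower of the lines under DOX. The genes were picked for large ratios, which favours such separation. Nhp2, a core protein of box H/ACA particles, fell by 3.33 ± 0.27 and Rrp1b by 3.91 ± 0.26. Ddx10, Surf6, Rrp1, Imp3 and Emg1 did not pass, with ratios from -0.70 to 0.16. RNA polymerase I, which transcribes rRNA, lost 9 of 13 genes and gained none, at a median of -0.97. Its large subunits Polr1b and Polr1a fell by 4.74 ± 0.26 and 3.38 ± 0.27. The polymerase subunit gene Cd3eap fell by 2.98, the factor Ubtf by 1.31 and the initiation factor Rrn3 by 0.89.

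The genes of ribosomal proteins had medians nearer 0. Of 51 genes of cytosolic ribosomal proteins 15 fell (29.4%, against 19.6% of all genes tested), none rose and 36 did not pass. Their median was -0.34. Rplp0 fell by 2.61 ± 0.26 and Rpl4 by 2.26 ± 0.27, whereas Rps3 and Rpl3 had ratios of -0.27 and -0.20. Many ribosomal protein genes have near-identical pseudogene copies, and whether a probe reads a copy was not tested. Mitochondrial ribosomal proteins fell in 40 of 73 genes (54.8%) and rose in none, at a median of -0.91. Mrps18b went from 12.64 and 12.74 to 10.21 and 10.52, and Mrps6 fell by 2.22 ± 0.30. Translation factors fell in 17 of 38 genes (44.7%), with a median of -0.67. Eif4ebp1, an inhibitor of the cap-binding factor, and Eif1a, which helps find the start codon, fell by 2.53 and 2.61, while the elongation factors Eef1a1 and Eef2 stood at 0.07 and 0.13. Aminoacyl-tRNA synthetases, which charge tRNAs, fell in 19 of 32 genes. Vars fell by 2.96 ± 0.31, the most of that list, and Tars, Qars and Aars2 lay between -0.03 and 0.06.

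Chaperonins and transport factors fell in most genes tested. The cytosolic chaperonin CCT and its mitochondrial counterpart HSP60 fell in 9 of 10 genes, at a median of -1.11. Hspd1, the HSP60 subunit, went from 15.13 and 15.36 to 12.31 and 12.65 and fell by 2.77 ± 0.25 (adjusted p = 0.00017). Its partner Hspe1 fell by 3.0 ± 0.27, and Cct4, at -0.54, was the gene that did not pass. Nuclear transport genes fell in 25 of 36 (69.4%), with a median of -1.19. The import receptor Ipo4 went from 10.65 and 10.50 to 5.92 and 6.85 and fell by 4.19 ± 0.31, and Ipo5 fell by 2.30. In mitochondrial protein import 14 of 24 genes fell, led by the small carriers Timm8a1, Timm9 and Timm10 at -3.12, -2.68 and -2.45, and Timm17b rose by 1.13.

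Nucleotide synthesis differed between its lists. Purine synthesis lost 10 of 13 genes (76.9%) and gained none, at a median of -1.35. Ppat, the committed step, fell by 2.18 ± 0.26, Gart by 3.0 ± 0.34 and Atic, the last step to IMP, by 2.53 ± 0.25. Hprt, which salvages purine bases, stood at -0.72 and did not pass. In pyrimidine and deoxynucleotide synthesis 8 of 20 genes fell (40%), 2 rose and 10 did not pass, at a median of -0.66 (-1.09 in control cells and -0.099 in miR-17-92 cells). Cad, the enzyme of the opening pyrimidine steps, went from 10.52 and 10.40 to 6.39 and 6.82 and fell by 3.86 ± 0.27 (adjusted p = 6.8e-05). Dhodh and Umps, the next enzymes of that path, fell by 2.81 and 2.13, and Dctd, which deaminates dCMP, by 4.07. The enzymes named so far for pyrimidines had lower levels with DOX in both lines. Tyms, Rrm2 and Tk1, which serve DNA synthesis, had ratios of -0.05, -0.04 and -0.46 and did not pass, and the salvage kinases Dck and Tk2 rose by 1.23 and 1.27.

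Serine, glycine and folate metabolism, which supplies carbon units to purines and thymidylate, fell in 11 of 13 genes (84.6%) at a median of -1.96. Shmt1, the cytosolic serine hydroxymethyltransferase, stood at 13.37 in both lines without DOX and at 6.68 and 9.38 with it. Its ratio was -5.34 ± 0.54 (adjusted p = 0.00025), and the lines ended far apart though both moved down. Mthfd1, Shmt2 and Phgdh, which opens serine synthesis, had ratios of -3.91, -3.14 and -2.90. Gldc, which breaks glycine down in mitochondria, went against the list, with group means of 5.23 and 9.41. It was at least 7.26-fold higher on its brightest probe, and its next probe had a ratio of 2.11. In polyamine metabolism Srm, Odc1, the rate-limiting decarboxylase, at -2.76 ± 0.37 and Mtap at -2.86 ± 0.27 fell. The catabolic oxidase Smox rose by 0.85 and Oaz2, an inhibitor of ornithine decarboxylase, by 0.97. Metallothioneins and glutathione enzymes fell in 8 of 18 genes (44.4%, against 19.6% of all genes tested) and rose in none. Txnrd2, mitochondrial thioredoxin reductase, stood at -2.25 and Gclm, which limits glutathione synthesis, at -1.51.

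Genes of energy metabolism had medians nearer 0. In the TCA cycle and pyruvate dehydrogenase 7 of 24 genes fell (29.2%, against 19.6% of all genes tested). They were led by Suclg2 at -3.48 ± 0.32 and Idh3a at -1.89 ± 0.26, and Idh1 rose by 1.26. Of 66 genes of the respiratory chain and ATP synthase 6 fell and 2 rose, under the shares of all genes tested. Of 15 glycolytic genes 1 fell (6.67%), Pgam1, and 2 rose (13.3%), Hk1 and Pkm, both shares under those of all genes tested. Their median of 0.24 was -0.08 with the authors' processed values and -0.47 without the miR-17-92 array with DOX. Of 16 sterol synthesis genes 3 fell (18.8%) and 1 rose, no larger shares than over all genes tested, and the median of -0.07 was 0.19 with median scaling and 0.12 without the control array with DOX. Of 33 proteasome genes 5 fell (15.2%, below the 19.6% of all genes) and 26 did not pass, and the interferon-inducible subunits Psmb9 and Psmb8 rose by 1.39 and 0.81. Amino acid transporters fell in 4 of 13 genes (30.8%, against 19.6% of all genes). Among them were Slc7a6 at -1.75 and the glutamine carrier Slc1a5 at -1.68, and the cystine carrier Slc7a11 rose by 1.57.

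**Figure D3:**
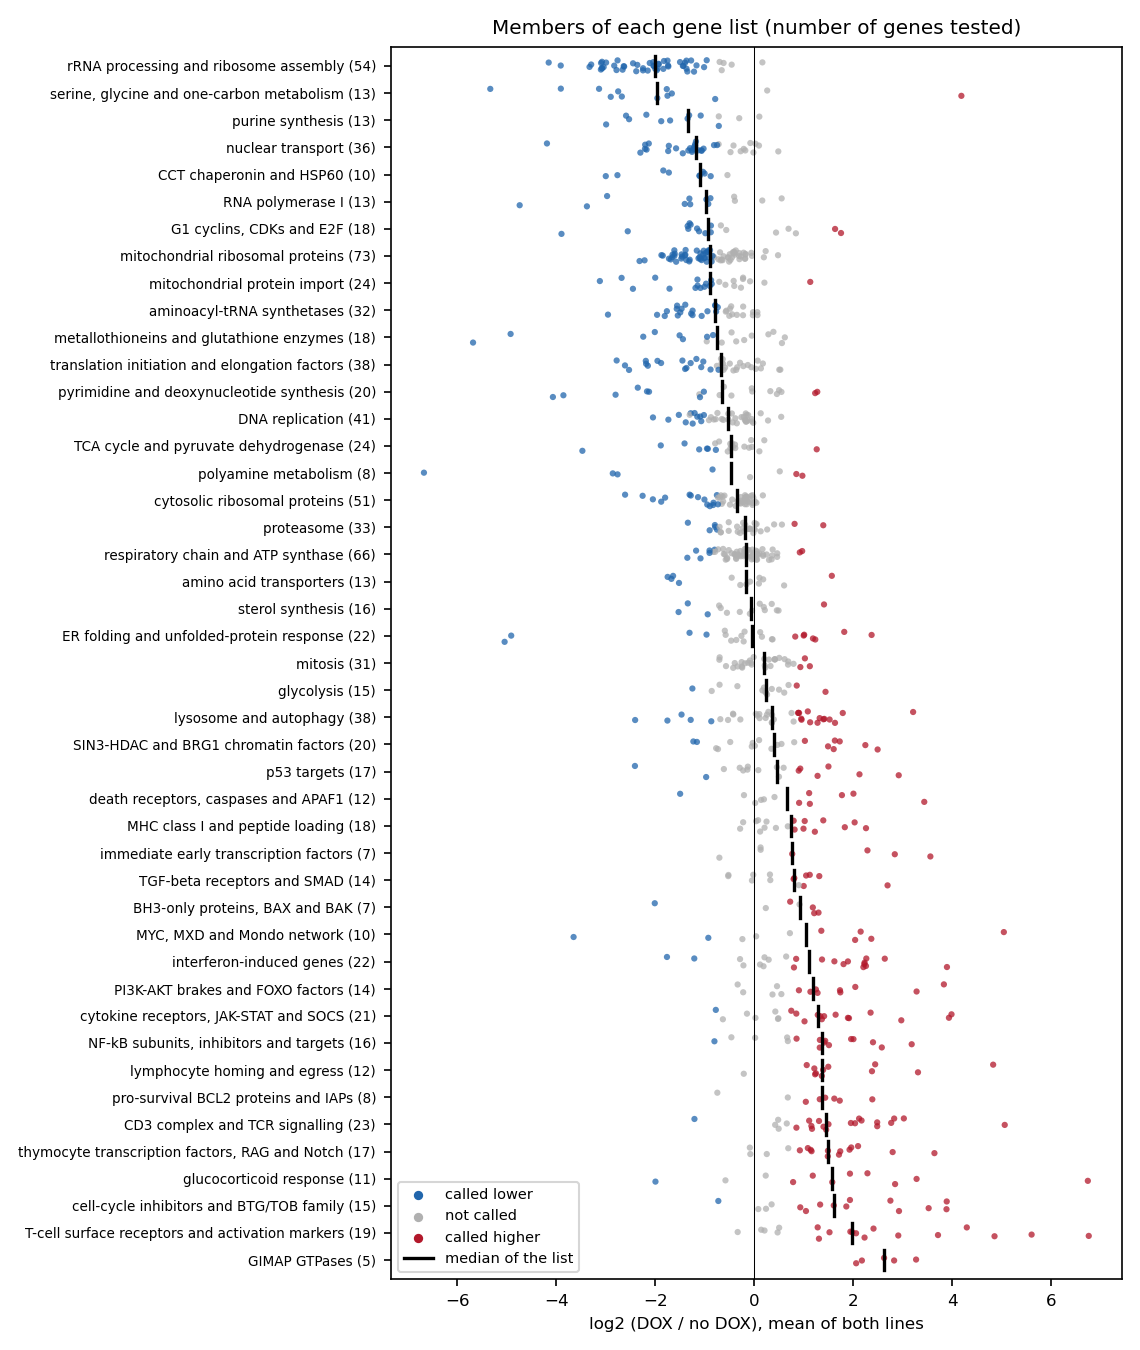
Each point is a tested member of a gene list, placed by its log2 ratio of DOX over no DOX averaged over both lines, and the black bar is the list's median. The 45 lists run from rRNA processing and ribosome assembly, median -2.02, to the GIMAP GTPases, median 2.62, and blue and red mark members called lower and higher.

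Cell-cycle genes gave different counts by list. Among G1 cyclins, their kinases and E2F factors 11 of 18 genes fell (61.1%) and 2 rose (11.1%). Ccnd2, the D cyclin known as a MYC target, went from 9.75 and 10.12 to 5.47 and 6.61 and fell by 3.90 ± 0.28 (adjusted p = 7.5e-05). Cdk6 had group means of 8.14 and 5.58 and was at least 3.92-fold lower. Ccnd3 went the other way, from 14.33 and 14.16 to 15.87 and 15.89, and rose by 1.63 ± 0.25. The D cyclins thus moved in opposite directions in both lines. Of 41 DNA replication genes 11 fell (26.8%, against 19.6% of all genes tested) and none rose. Their median of -0.53 was 0.0025 without the control array with DOX. Of 31 mitosis genes 3 rose (9.68%, below the 22.8% of all genes tested), Nusap1, Cenpf and Top2a, and none fell. That median of 0.20 was -0.12 with the authors' processed values and -0.27 without the miR-17-92 array with DOX.

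Inhibitors of the cell cycle rose. Of 15 tested inhibitors and BTG/TOB genes 11 rose (73.3%, against 22.8% of all genes) and 1 fell, at a median of 1.6, or 1.33 with undetected genes at their bound. Btg1, an antiproliferative factor, went from 10.31 and 10.07 to 14.44 and 13.70 and rose by 3.88 ± 0.27 (adjusted p = 6.7e-05). Ccng2, a cyclin G linked to arrest, went from 8.03 and 7.67 to 11.98 and 11.49. Hbp1, a repressor of G1 genes, went from 8.92 and 8.85 to 13.35 and 11.46. Each was higher on both arrays with DOX than on either without, and the lines were nearly level for Ccng2 and furthest apart for Hbp1. Their choice by large ratios favours that separation between conditions. The INK4 inhibitors Cdkn2d and Cdkn2c rose by 2.92 and 1.6, and Cdkn1b, the gene of p27, was undetected without DOX and at least 3.41-fold higher. Cdkn1a, the gene of p21, had a ratio of 0.08, and Cdkn2a fell by 0.73. Of 20 SIN3-HDAC and BRG1 chromatin genes 7 rose (35%, against 22.8% of all genes) and 2 fell (10%, against 19.6%). Kmt5b, a histone methyltransferase, rose by 1.63 ± 0.30 (adjusted p = 0.0036), and Hdac7, a class II deacetylase, by 2.49, whereas Sin3b stood at 0.81 and did not pass.

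Brakes on PI3K and AKT signalling and FOXO genes rose in 9 of 14 and fell in none, at a median of 1.19 or, at the bounds, 1.02. Pik3ip1, which restrains PI3K, went from 7.39 and 6.58 to 11.55 and 10.09 and rose by 3.83 ± 0.28. Ddit4, an mTORC1 inhibitor, went from 9.86 and 9.61 to 13.10 and 12.93 and rose by 3.28 ± 0.25. Foxo1 rose by 1.74 and Foxo3 by 0.90. FOXO factors act in the nucleus when AKT is low, and several of these genes are known FOXO targets. Whether FOXO factors acted here was not tested. Of 17 p53 targets 6 rose (35.3%, against 22.8% of all genes tested) and 2 fell (11.8%, against 19.6%). The median of 0.46 was 0.22 at the bounds. It was 0.032 with the authors' processed values, 0.24 without background correction, 0.73 with median scaling and -0.012 with no detection filter. Trp53inp1 rose by 2.92 ± 0.30 and Mdm2 by 0.90, while Cdkn1a did not pass and Aen was at least 2.73-fold lower.

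Genes for and against cell death rose together. Of 7 tested BH3-only and BAX/BAK genes 4 rose (57.1%, against 22.8% of all genes tested). Bid, which links death receptors to mitochondria, fell by 2.01 ± 0.26. Bcl2l11, the gene of BIM, went from 8.84 and 8.41 to 10.83 and 8.79, a ratio of 1.18 ± 0.38 (adjusted p = 0.036), and Bbc3, the gene of PUMA, from 9.24 and 9.37 to 11.58 and 9.62. Both were higher with DOX in each line, by a small margin in miR-17-92 cells. Of 8 pro-survival genes 6 rose (75%) and none fell. Cflar, which blocks caspase-8, rose by 2.38 ± 0.25, Bcl2l1 by 1.73 ± 0.25 and Mcl1 by 1.62 ± 0.28. Bcl2 was undetected on both arrays without DOX and rose, and no bound is given for it here. Fas, a death receptor, went from 9.12 and 9.51 to 12.83 and 12.67 and rose by 3.43 ± 0.27. Caspases Casp6, Casp8 and Casp9 and the scaffold Apaf1 rose by 0.90 to 2.00, and Cycs, the gene of cytochrome c, fell by 1.5.

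Genes of T lymphocytes rose as a group. Among the 15 highest genes, Cd6, Cd52, Tespa1, Cd69, Itgb7, Slamf1 and Ltb are known from T cells. Cd6, a surface receptor that binds ALCAM, stood at 7.79 and 7.29 without DOX and at 14.66 and 13.93 with it, a ratio of 6.76 ± 0.25 (adjusted p = 2.8e-05). Cd52, a small surface glycoprotein, went from 6.92 and 5.75 to 12.81 and 11.06. Tespa1, needed for T-cell receptor signalling in the thymus, went from 7.26 and 6.38 to 12.10 and 11.66. None of the 3 overlapped between conditions, as their choice by size of change fixes. Cd52 and Tespa1 were detected on only 1 array without DOX. Cd69, an early activation marker, had group means of 4.96 and 9.81 and was at least 9.57-fold higher. Of 19 tested T-cell surface receptors and activation markers 14 rose (73.7%) and none fell, and all 14 were at least 2-fold higher in both lines. The median was 1.98, or 1.28 at the bounds. Of the 19, 8 were undetected on both arrays of 1 condition and entered through the other, which favours such calls. Cd44, Cd8b1, Ly6e, Slamf6 and Ctla4 did not pass, with ratios from -0.34 to 0.50.

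The antigen receptor apparatus was present without DOX and rose with it. Of 23 genes of the CD3 complex and T-cell receptor signalling 18 rose (78.3%) and 1 fell, at a median of 1.45. Cd3e stood at 13.13 and 12.94 without DOX and at 14.84 and 14.13 with it, and Cd247, the zeta chain, at 9.53 and 9.72 and then at 12.26 and 11.32. Ptprc, the phosphatase CD45, rose by 2.83 ± 0.25 and Rasgrp1, which couples the receptor to RAS, by 2.77 ± 0.26. Ubash3a, which damps the receptor, fell by 1.21. Of 17 thymocyte transcription factors and RAG and Notch genes 13 rose and none fell, at a median of 1.48, or 1.16 at the bounds. Bcl11b, which commits cells to the T lineage, went from 13.19 and 12.75 to 15.28 and 14.85. Tox rose by 3.64 ± 0.31, Rag1, a subunit of the recombinase, by 1.96 ± 0.29, Gata3 by 1.92 and Runx1 by 1.74. Its partner Rag2 was undetected without DOX and at least 3.35-fold higher. Lef1, Tcf3, Tcf12 and Ikzf1 did not pass, with ratios from -0.09 to 0.69.

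Cell type markers bear on what the cultures held. Of 10 T-cell markers on the array 7 were detected on both arrays without DOX and 9 on both with it, and Cd5 on none. All 9 tested rose, at a median of 1.52, and their summed intensity went from 66580 to 200000 in control cells and from 59900 to 139400 in miR-17-92 cells. In bulk RNA, more cells of a type and more RNA per cell cannot be told apart. Of the other lists, 7 of 8 B-cell, 9 of 10 myeloid, 5 of 6 natural killer, 6 of 6 erythroid and 8 of 9 stromal or endothelial markers were detected on no array. The exceptions, Vpreb1, Itgam, Prf1 and Pecam1, each rose with DOX. The summed intensity of the B-cell list was 309.3 to 358.1 without DOX and 358.6 to 619.2 with it, and that of the myeloid list 384.2 to 419.5 and 445.8 to 512.4. That of the natural killer list was 1416 to 1631 and 2144 to 3436, that of the erythroid list 235.5 to 264.4 and 267.9 to 281.2, and that of the stromal list 694.5 to 751.7 and 1378 to 2065.

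Homing receptors and lymphocyte GTPases rose alongside. Of 12 genes of lymphocyte homing and egress 11 rose (91.7%) and none fell. Itgb7, the integrin chain of gut homing, had group means of 5.24 and 10.07 and was at least 11.5-fold higher, and Itgal, a chain of LFA-1, was at least 6.38-fold higher. Klf2, a FOXO1 target that drives egress from the thymus, rose by 1.24, the chemokine receptor Cxcr4 by 1.36, and Itga4 at -0.21 did not pass. All 5 tested GIMAP genes, GTPases of lymphocyte survival, rose, with a median of 2.62 or, at the bounds, 1.99. Of these 5, 3 were undetected on both arrays without DOX and entered through the arrays with it. Gimap1 went from 8.47 and 7.65 to 11.92 and 10.74 and rose by 3.27 ± 0.26. Among the highest genes outside these lists were Abi3, an actin-regulating adaptor, Myo1f, a myosin of blood cells, Eci3, an enzyme of fatty acid oxidation, and Spon2, a secreted matrix protein. They were undetected without DOX and at least 20.1-, 13.6-, 12.7- and 12.7-fold higher. Slamf1, a lymphocyte receptor, was at least 13.0-fold higher, and Dok2, an adaptor that damps receptor signals, rose by 4.37 ± 0.25. Tctex1d1, of a dynein light chain family, rose by 5.53 ± 0.29. It was detected on only 1 array without DOX, and its next probe had a ratio of 2.91.

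Cytokine, NF-kB and interferon genes rose too. Of 21 cytokine receptor, JAK-STAT and SOCS genes 14 rose and 1 fell, at a median of 1.28, or 0.85 at the bounds. Ifngr1, a chain of the interferon-gamma receptor, went from 8.23 and 8.11 to 12.21 and 12 and rose by 3.93 ± 0.25 (adjusted p = 5.9e-05). Socs3, a feedback inhibitor, was at least 6.54-fold higher and Jak1 rose by 1.91. Of 16 NF-kB genes 11 rose, at a median of 1.37, or 1.09 at the bounds. The feedback inhibitors Tnfaip3 and Nfkbia rose by 3.18 ± 0.26 and 2.58 ± 0.25, and Rela, at 0.68, did not pass. Ltb, the lymphotoxin chain known as an NF-kB target, went from 8.23 and 6.92 to 12.27 and 11.35 and rose by 4.24 ± 0.26. Of 22 interferon-induced genes 13 rose and 2, Bst2 and Mx2, fell, at a median of 1.11, or 0.82 at the bounds. Gbp2, a guanylate-binding protein, was at least 12.6-fold higher and Irf1 rose by 2.25 ± 0.25. Rsad2, Irgm1, Gbp3 and Ifi35 were among the 7 that did not pass. In MHC class I and peptide loading 9 of 18 genes rose (50%, against 22.8% of all genes tested) and none fell. The peptide transporter Tap2 rose by 1.83 ± 0.25 and B2m by 0.79, while the class I gene H2-K1 stood at 0.08.

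Hsd11b1, which regenerates active glucocorticoid inside cells, was second only to Cd6 among the ratios. Its level was 6.45 and 6.16 without DOX, undetected on both arrays, and 13.81 and 12.27 with DOX. The group means were 6.30 and 13.04, and the gene was at least 89.7-fold higher (adjusted p = 2.8e-05). Of 11 tested genes of the glucocorticoid response 8 rose and 1 fell, at a median of 1.57. Sgk1, a kinase induced by the hormone, rose by 2.84 ± 0.30, Tsc22d3, the leucine zipper GILZ, by 1.18 and the receptor gene Nr3c1 by 0.78. Fkbp5, a sensitive target in many cells, stood at -0.58 and did not pass, and the receptor co-chaperone Fkbp4 fell by 2.00. Ddit4, Cdkn1b and Dusp1 of this list are also induced in other settings and sit in other lists here.

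Genes of the endoplasmic reticulum went both ways. Of 22 tested, 7 rose (31.8%, against 22.8% of all genes tested) and 4 fell (18.2%, against 19.6%). Their median of -0.04 was 0.02 with median scaling and 0.12 without the control array without DOX. The folding enzymes Fkbp11 and Pdia5 fell as given above. The stress factors Ddit3 and Xbp1 rose by 2.37 ± 0.27 and 1.82 ± 0.33, and Hspa5, the chief chaperone of the compartment, stood at -0.60 and did not pass.

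Promoters were read for E-box letters because the genes that fell include many known MYC targets. RefSeq gave a promoter window on GRCm38.p6, 250 bases before to 50 after a gene start, for 6658 of the 8062 genes. CACGTG, which reads the same on both strands, occurred in 12.6% of these genes. The share was 20.1% of genes at least 2-fold lower in both lines, 11.2% of those at least 2-fold higher and 12.3% of those not called. With the genes ordered by their ratio and cut into 10 groups of equal size, it was 18.8% in the lowest group and 10.3% in the highest, at a mean G+C content of 60.7% and 59.9%. The position of the letters also differed. In the 50 bases after the start the letters began in 5.88% of 885 windows of the genes at least 2-fold lower, in 0.829% of 1086 windows of those at least 2-fold higher and in 1.68% of the 8512 windows of all genes tested. In the 250 bases before the start the shares were 12.2%, 7.83% and 9.23%. By list, 23.4% of rRNA processing genes and 31.0% of translation factor genes held the letters, and 0 of 12 genes of serine, glycine and folate metabolism did. The lysosome list, in which 15 of 38 genes rose, held them in 32.3%. Among other lists in which more genes rose than fell, the share was 66.7% of 6 immediate early genes and 40% of 10 glucocorticoid response genes. It was 0 of 9 T-cell surface genes. Mitochondrial ribosomal protein genes, of which 40 of 73 fell, held the letters in 7.69%. These shares are descriptions of letters, and no binding was measured.

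**Figure D4:**
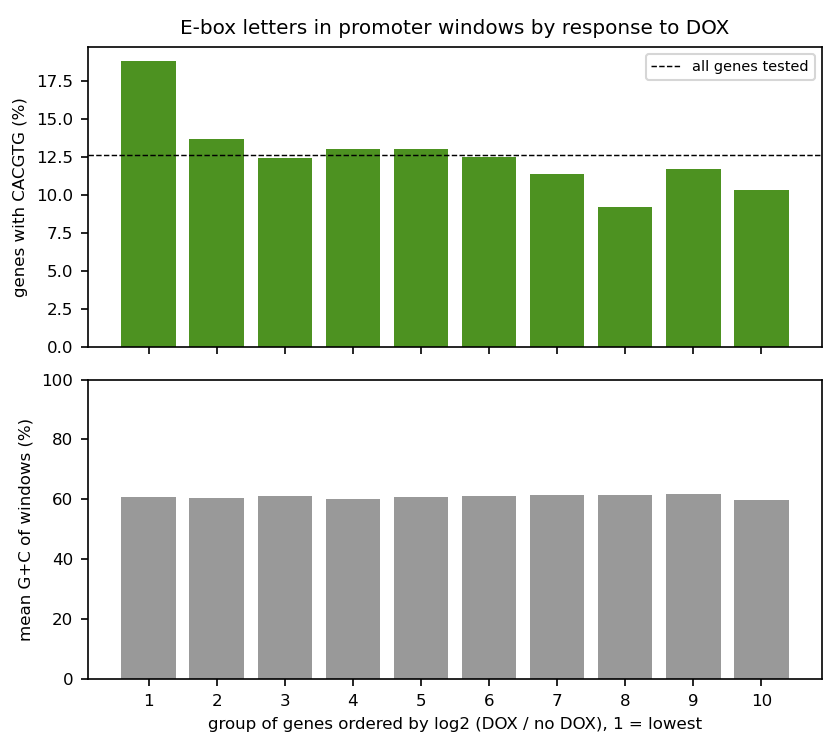
The upper panel shows the percent of genes with CACGTG in a promoter window for each of 10 equal groups of genes ordered by log2 ratio of DOX over no DOX, with the share over all genes tested, 12.6%, as a dashed line. The lower panel shows the mean G+C content of the same windows, which stays near 60 percent, while the share is 18.8% in the lowest group and 10.3% in the highest.

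The 4 named genes that fell furthest among those with the letters are printed to show where the E-box lies. In all 4 an E-box begins within 30 bases after an annotated start, and Timm8a1 holds another at -236, before the printed stretch. Fkbp11 has another window, at chr15:98728149-98728448, which holds no CACGTG and is not printed. The windows run from 150 bases before to 50 after the gene start, 5′ to 3′ on the gene's strand, with CACGTG in capitals. Fkbp11 lies at chr15:98727578-98727777, Pusl1 at chr4:155891713-155891912, Ipo4 at chr14:55635635-55635834 and Timm8a1 at chrX:134541621-134541820, all on the minus strand.
Fkbp11: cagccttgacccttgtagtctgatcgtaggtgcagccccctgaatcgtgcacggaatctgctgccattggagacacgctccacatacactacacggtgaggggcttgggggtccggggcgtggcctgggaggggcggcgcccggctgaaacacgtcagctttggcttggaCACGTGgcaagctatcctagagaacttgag
Pusl1: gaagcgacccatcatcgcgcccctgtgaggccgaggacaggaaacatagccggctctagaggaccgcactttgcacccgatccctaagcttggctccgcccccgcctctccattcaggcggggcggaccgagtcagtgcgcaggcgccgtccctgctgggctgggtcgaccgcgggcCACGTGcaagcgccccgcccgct
Ipo4: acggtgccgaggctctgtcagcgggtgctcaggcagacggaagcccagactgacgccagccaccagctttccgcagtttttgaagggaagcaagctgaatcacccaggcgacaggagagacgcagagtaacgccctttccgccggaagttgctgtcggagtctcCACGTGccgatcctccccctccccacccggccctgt
Timm8a1: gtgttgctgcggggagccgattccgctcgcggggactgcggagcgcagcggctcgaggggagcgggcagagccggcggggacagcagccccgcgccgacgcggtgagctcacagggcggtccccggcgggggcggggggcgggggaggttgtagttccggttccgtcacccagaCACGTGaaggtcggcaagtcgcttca

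Of the 15 lowest genes 12 had a window and 2 of these held CACGTG. Of the 15 highest genes 8 had a window, and none held CACGTG. The letters GTAAACA, the core that FOXO factors recognise, occurred on either strand in 3 of those 8 genes, Hsd11b1, Txnip and Ltb. Over all genes tested the share was 3.06%, among genes called higher 3.75% and among genes called lower 2.54%. The 8 genes are too few to compare with these shares. The design named only CACGTG, the search for other letters was added to it, and no FOXO binding was measured. The interferon-response core, GAAA followed after any 2 bases by another GAAA, was searched on both strands and occurred in 3.44% of genes tested and in 61.1% of those of the interferon-induced list. None of these motifs contains another. The 3 promoters are printed, with GTAAACA in capitals, because they hold these letters. Tctex1d1, Myo1f and Itgb7 rose further than Ltb, and their windows hold none. Hsd11b1 lies at chr1:193242311-193242510 on the minus strand, Txnip at chr3:96557807-96558006 and Ltb at chr17:35194357-35194556, both on the plus strand.
Hsd11b1: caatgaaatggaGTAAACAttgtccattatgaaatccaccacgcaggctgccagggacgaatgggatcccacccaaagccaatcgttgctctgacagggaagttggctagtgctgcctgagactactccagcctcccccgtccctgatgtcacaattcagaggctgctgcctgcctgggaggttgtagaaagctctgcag
Txnip: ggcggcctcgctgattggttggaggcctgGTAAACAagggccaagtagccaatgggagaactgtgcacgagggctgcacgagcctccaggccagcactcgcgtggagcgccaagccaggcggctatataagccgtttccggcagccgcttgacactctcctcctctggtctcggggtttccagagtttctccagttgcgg
Ltb: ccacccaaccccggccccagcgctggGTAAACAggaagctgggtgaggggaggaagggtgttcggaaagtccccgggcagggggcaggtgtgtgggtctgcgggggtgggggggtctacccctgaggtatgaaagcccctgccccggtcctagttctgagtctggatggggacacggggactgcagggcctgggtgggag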

How the data were processed

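RNA from RNeasy columns was amplified and labelled with biotin by an Ambion kit, per the labels' protocols. GenomeStudio is the one tool in the submitters' processing notes, without a version. The main deposited table gives, per the file headers, a linear bead intensity that is not normalized, and beside it an unadjusted detection p-value. Detection columns are headed by slide position and name no sample, so each was tied to the signal it tracks: it falls steadily with its own array's signal, with at least 16696 breaks of order against any other. The authors' processed intensity, deposited separately, rescales each array linearly by an unstated method, with medians of 146.9 and 143.2 without DOX and 100.9 and 104.6 with it.

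From the table without normalization, limma 3.58.1 (R 4.3.3) applied a normal-exponential background correction that infers the control level from the detection p-values. After an offset of 16, values were put on the log2 scale and quantile normalized. Of 45281 probes, 34885 named 1 gene, 18 several and 10378 none, and 34807 were matched to current symbols by gene number. A gene is its brightest probe detected at p of at most 0.01 on at least 2 arrays. The next probe moved the same way for 1273 of 1327 called genes that had one. Its ratio could be smaller, as for Gldc (2.11 against 4.18), or larger, as for Cd3eap (-3.95 against -2.98). Ratios and bounds are those of the brightest probe unless stated. The model held vector and DOX and was moderated across genes (prior degrees of freedom 7.03). It was also run on simulated arrays, with variances drawn from the fitted prior and fewer changed genes than were called here. That setting meets the model's assumptions by design, so it cannot show whether they hold for these arrays. Genes were called at a Benjamini-Hochberg adjusted p of at most 0.05. A gene undetected on both arrays of its dim group is given as a lower bound, the mean of its bright group against, per array, the higher of its own signal and the lowest detected signal. Vector pairs the arrays because both arrays of a vector come from the same line, and it is the block of the model.

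Named genes are the 15 highest and 15 lowest of those at least 2-fold changed in both lines, the 10 smallest p-values each way, up to 4 called members a list, other members that complete a count, and Myc, Mxd4, Txnip and Mir17hg. Further called members, such as Cd3e, Foxo3, Phgdh and Klf2, were chosen for their known roles after their values were seen. Clone and predicted names were passed over. Members and lists were chosen with earlier results of these data known, and no set was tested. Promoters, matched by gene number, and microRNAs, picked by name, are from RefSeq. Alternatives to offset, background, scaling, filter, probe rule, block and variance were run.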

Additional observations from a re-analysis of the deposited data

Results flagged for a closer look

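Of the 45 gene lists, 6 had medians of opposite sign in the lines, control cells first, and these differences were not tested. The values were -0.36 and 0.94 for glycolysis, -1.25 and 0.012 for DNA replication, and -0.34 and 0.52 for mitosis. They were -0.21 and 0.038 for sterol synthesis, -0.068 and 0.066 for the endoplasmic reticulum list, and -0.32 and 0.042 for the respiratory chain and ATP synthase. No group held enough arrays for a test of single outlying arrays.

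Probes without a gene name also moved. Of 2086 such probes detected on at least 2 arrays, 280 had ratios of 2-fold or more above and 228 of 2-fold or more below the level without DOX in both lines. They were not analysed further here.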

How the results depend on the processing

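No gene named by a fixed rule reversed under any alternative run. Those genes are the extremes by ratio and p-value, up to 4 called members a list, and Myc, Mxd4, Txnip and Mir17hg. Members named to complete a count or for their known roles were not part of this check. Over the checked genes and alternatives, 2274 results kept their direction and side of the threshold and 164 kept their direction but no longer passed. Counts of genes called higher and lower were 1838 and 1584 as reported and stayed within 1.5 times under an offset of 50, no background correction, median scaling, the authors' processed values, both other detection filters, the mean of probes, no replicate block (1502 and 1320, without the vector term) and an intensity trend in the variance. Leaving out 1 array, with the vector term dropped and the lone array assumed to vary like the other pair, gave 368 to 2377 higher and 374 to 2333 lower genes. A test against a 2-fold change (limma treat), added after seeing the data, called 353 higher and 357 lower. With each gene's own variance, also added, limma called 0 and 0, and 714 and 640 at an unadjusted p of at most 0.05. Genes at least 2-fold higher in both lines numbered 535 with the authors' processed values against 961. Over all lists and alternatives, 437 list medians moved by less than the SD between the lines, 134 moved by more and 14, in 7 lists, reversed. Without 1 array, they ranged from -0.47 to 0.95 for glycolysis, from -0.27 to 0.42 for mitosis, from -0.25 to 0.12 for sterol synthesis, from -1.17 to 0.0025 for DNA replication, from -0.32 to 0.059 for the respiratory chain and from -0.080 to 0.12 for the endoplasmic reticulum list. With the authors' processed values the medians were -0.075 for glycolysis and -0.12 for mitosis. Median scaling gave 0.19 for sterol synthesis and 0.017 for the endoplasmic reticulum list, which was 0.15 with detection on all 4 arrays and 0.057 with no filter, and p53 targets were at -0.012 with no filter. The causes were not tested. Signal near background limits the 339 genes called higher but undetected on both arrays without DOX, of which 36 had a bound under 1-fold, and the 141 called lower but undetected with DOX. With undetected genes at their bound, 10 of the 45 list medians moved by at least 0.1 and 0 changed sign.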

Other observations

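Lysosome and autophagy genes went both ways. Of 38 tested, 15 rose (39.5%, against 22.8% of all genes tested) and 5 fell (13.2%, against 19.6%), at a median ratio of 0.36. Psap, the precursor of the saposins, went from 12.22 and 12.09 to 14.45 and 13.43 and rose by 1.79 ± 0.29, and Ctsl, a cysteine protease, was at least 3.81-fold higher. The autophagy gene Map1lc3b rose by 1.28, whereas the hydrolase Gusb fell by 1.76 ± 0.25 and Lgmn, another protease, was at least 3.04-fold lower. Lamp1, Becn1 and Sqstm1 did not pass, with ratios of 0.23, 0.03 and 0.35.

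Receptors and SMAD factors of TGF-beta, a cytokine that restrains lymphocyte growth, rose in 7 of 14 genes and fell in none. The share that rose was 50%, against 22.8% of all genes tested, and the median was 0.80. Tgfbr2, the receptor that binds the ligand, went from 8.85 and 8.65 to 11.89 and 10.99 and rose by 2.69 ± 0.28 (adjusted p = 0.00028). Of 7 tested immediate early genes 4 rose (57.1%). Egr1, a zinc finger factor induced by receptor signals, went from 7.17 and 7.92 to 11.08 and 11.13 and rose by 3.56 ± 0.28, and Jund was at least 5.55-fold higher. Junb and Dusp2, both at 0.13, did not pass.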
